A study of Homo sapiens with 9 samples.

Results

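Expression of 8 genes that handle carbon dioxide, bicarbonate and protons was followed in Hep3B cells, an established human liver cancer line, by RNA sequencing. The genes were chosen by symbol in the deposited count table, as 6 carbonic anhydrases (CA2, CA5B, CA9, CA11, CA12 and CA13) and 2 sodium bicarbonate cotransporters (SLC4A4 and SLC4A7). They are 8 of the 60683 genes in the table, and all 8 were among the 22672 genes with enough counts to be tested. The study exposed the cells for 24 hours to vehicle (DMSO) at 20% O2, to vehicle at 1% O2, or to the HIF inhibitor 32-134D at 1% O2, with 3 replicates in each group. The labels call these biological replicates seeded in wells of plates and give no dose. The groups share the cell line and the exposure time, and no library held cells given 32-134D at 20% O2.

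Carbonic anhydrases interconvert carbon dioxide with bicarbonate and a proton, and their isoforms sit in the cytosol, in mitochondria or on the outer face of the plasma membrane. Sodium bicarbonate cotransporters of the SLC4 family carry bicarbonate across the membrane, and together these proteins keep the cytosol of a cell that makes much lactic acid from becoming acid. HIF-1 and HIF-2 are transcription factors that accumulate when oxygen is low, and CA9 is one of the best known HIF-1 target genes.

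Promoter windows of the genes are shown first, because HIF binds the core letters ACGTG or GCGTG, called the core of a hypoxia-response element. The windows were taken from RefSeq on GRCh38.p14 and run from 250 bases before to 50 bases after a transcription start. RefSeq windows were matched by symbol for 5 of the 8 genes and not for CA2, CA11 or CA13. The 4 windows below are those of the surface enzymes CA9 and CA12, of CA5B, which holds the most core matches, and of the first of the 5 starts listed for SLC4A4. CA9 is at chr9:35673678-35673977 on the plus strand, CA12 at chr15:63381797-63382096 on the minus strand, CA5B at chrX:15738020-15738319 on the plus strand and the SLC4A4 start at chr4:71062410-71062709 on the plus strand. Each is printed 5′ to 3′ on the strand of its gene, and capitals mark the letters ACGTG or GCGTG, or CACGT or CACGC where the match is on the opposite strand.
CA9: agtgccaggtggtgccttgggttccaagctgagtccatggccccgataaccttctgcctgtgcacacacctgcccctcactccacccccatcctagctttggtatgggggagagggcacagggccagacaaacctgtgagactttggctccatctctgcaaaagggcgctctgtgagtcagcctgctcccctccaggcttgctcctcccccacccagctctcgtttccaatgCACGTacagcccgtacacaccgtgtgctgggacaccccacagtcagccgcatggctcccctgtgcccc
CA12: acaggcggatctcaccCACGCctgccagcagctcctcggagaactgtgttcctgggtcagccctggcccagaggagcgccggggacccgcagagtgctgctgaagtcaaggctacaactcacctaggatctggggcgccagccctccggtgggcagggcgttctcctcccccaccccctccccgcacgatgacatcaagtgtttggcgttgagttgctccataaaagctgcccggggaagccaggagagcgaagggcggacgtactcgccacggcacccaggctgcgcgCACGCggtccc
CA5B: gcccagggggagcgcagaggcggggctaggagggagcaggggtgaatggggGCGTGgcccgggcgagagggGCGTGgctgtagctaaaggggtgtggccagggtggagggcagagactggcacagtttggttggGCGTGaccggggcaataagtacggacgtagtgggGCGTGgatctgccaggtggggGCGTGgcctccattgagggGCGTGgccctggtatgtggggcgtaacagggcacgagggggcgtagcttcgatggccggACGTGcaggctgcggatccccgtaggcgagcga
SLC4A4 start 1: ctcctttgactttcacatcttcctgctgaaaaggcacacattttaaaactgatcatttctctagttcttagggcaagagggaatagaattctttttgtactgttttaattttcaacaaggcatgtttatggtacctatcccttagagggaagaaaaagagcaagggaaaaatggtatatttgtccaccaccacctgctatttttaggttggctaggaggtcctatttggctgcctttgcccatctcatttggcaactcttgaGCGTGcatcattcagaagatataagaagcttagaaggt

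The CA9 window held 1 match, to ACGTG on the opposite strand, 18 to 14 bases before the start. The CA12 window held 2 matches to GCGTG on the opposite strand, and the CA5B window held 7 matches, of which 6 were GCGTG. For SLC4A4 the first and the fourth start held 1 match each and the other 3 starts held 0, and for SLC4A7 the windows held 3 matches at one start and 0 at the other. Of all 35116 windows in the RefSeq table, 21.4% held ACGTG, 36.5% held GCGTG and 48.4% held either, on one strand or the other. A match is a string of letters and says nothing on its own about binding. CA5B, with the most matches, was not called in any comparison, whereas CA9, with 1, had the largest fold changes among the 8 genes.

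Libraries held between 6013980 and 40549699 counts, with the smallest among vehicle at 20% O2, and 32-134D replicate 3 stood apart from the other 2 of its group (chi-square per degree of freedom of 36.2 and 40.5, against 2.08 between replicates 1 and 2). To a lesser degree replicate 1 of each vehicle group differed from replicates 2 and 3. The values were 6.72 and 13.26 against 1.64 at 20% O2, and 8.63 and 12.96 against 2.60 at 1% O2. Levels below are in CPM, read counts scaled to a common library size after TMM normalization, fold changes come from a single edgeR quasi-likelihood fit to all 9 libraries, and FDR is the Benjamini-Hochberg value over all genes tested. A gene was called where the FDR was below 0.05 and the fold change above 1.5, the thresholds of the study. All 14 hepatocyte markers were tested and summed to between 12720 and 22010 CPM per library, of which ALB alone held 5948 to 10210 CPM. Of the 14, AFP and APOB were called lower at 1% O2 (log2 fold changes -0.69 and -3.47), and with 32-134D APOB was called higher (3.12) and 5 lower (TF, TTR, FGA, FGB and AHSG, -0.80 to -0.98), of which AHSG was the 1 called lower without 32-134D replicate 3. Of 13 markers of blood, endothelial, fibroblast and muscle cells, CD3E, VWF and DES had 0 counts in every library, and the summed level was 34.8 to 41.7 CPM in vehicle at 20% O2, 16.7 to 18.3 CPM in vehicle at 1% O2 and 33.2 to 37.6 CPM with 32-134D. LYZ, COL1A1 and LUM held most of it: LYZ averaged 27.2, 8.62 and 17.5 CPM in the 3 groups, COL1A1 6.65, 3.62 and 7.05 CPM, and LUM 2.43, 3.76 and 8.40 CPM. Of the 7 of these markers that were tested, 4 were called lower at 1% O2, which is 57.1% beside 20.3% of all genes. With 32-134D 5 were called higher, 71.4% beside 16.2% of all genes, and 4 without 32-134D replicate 3. Against vehicle at 20% O2, LUM was called higher (log2 fold change 1.75) and LYZ lower (-0.61, SE 0.18, FDR 0.0442). Without 32-134D replicate 3 that comparison gave 1 higher and 0 lower. The part of these markers in the results below was not tested. These are shares of the RNA of a culture, so a change in RNA per cell and a change in the make-up of the culture cannot be told apart.

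At 1% O2 in vehicle, 3 of the 8 genes were higher (CA9, CA12 and CA11) and 2 were lower (SLC4A4 and SLC4A7) than in vehicle at 20% O2. Over all genes tested, 19.5% were called higher and 20.3% were called lower in this comparison. With 32-134D at 1% O2, 2 genes were higher than in vehicle at 1% O2 (SLC4A4 and SLC4A7) and 2 were lower (CA9 and CA11), beside 16.2% and 13.7% of all genes. When 32-134D at 1% O2 was compared with vehicle at 20% O2, only CA9 was called higher among the 8 genes and 0 were called lower, beside 3.0% and 0.516% of all genes. In edgeR 1 of the 8 genes, SLC4A4, was lower at an unadjusted p under 0.05, and DESeq2 also called 0. Without 32-134D replicate 3 the counts were again 3 and 2, 2 and 2, and 1 and 0. The first and second comparison share the vehicle libraries at 1% O2, and the third shares libraries with both.

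**Figure D1:**
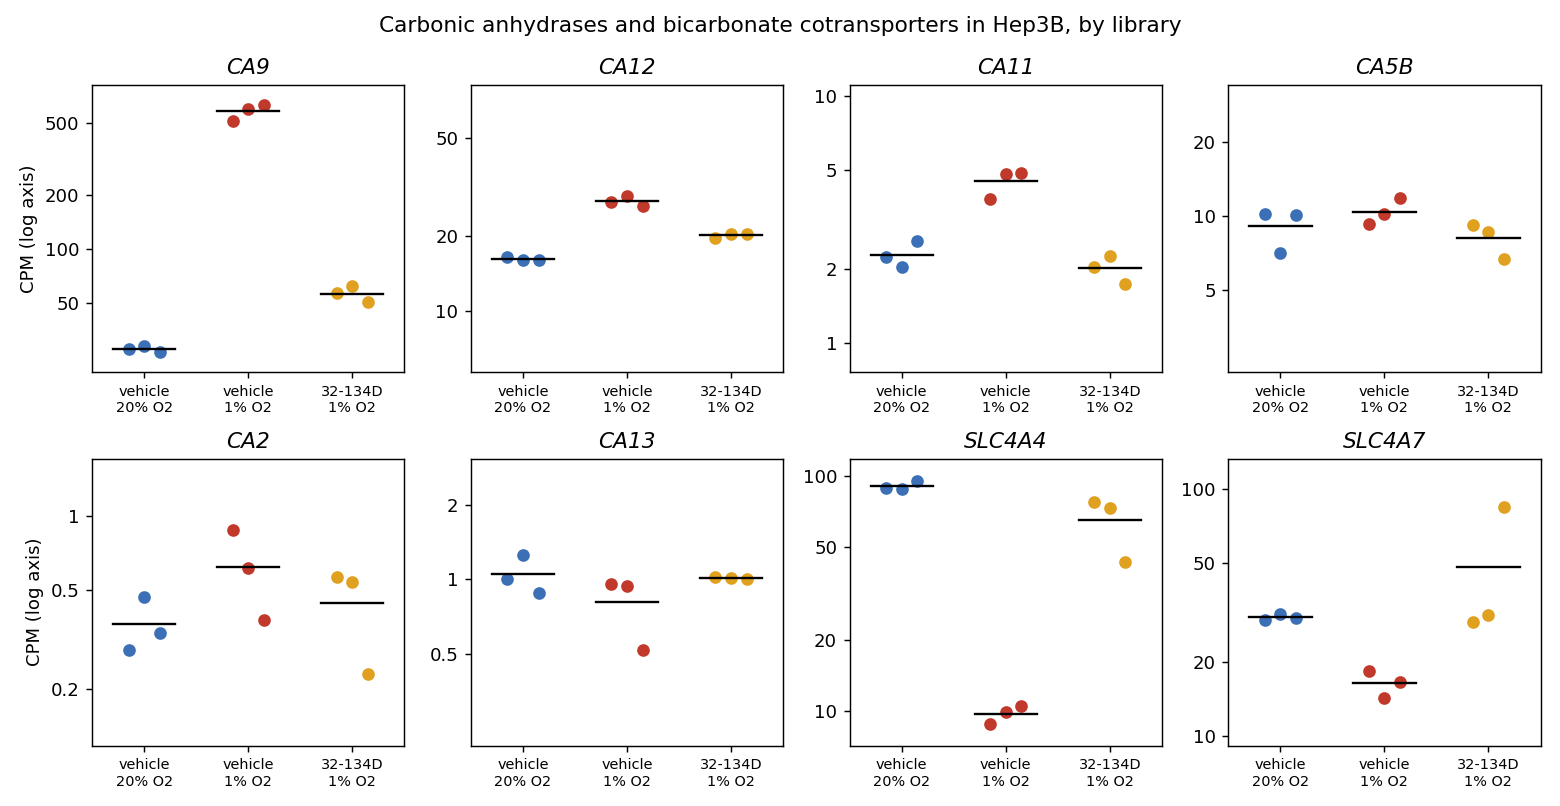
Level of each gene in each library, in CPM on a log axis, with 3 libraries a group (points) and the group mean (line). CA9 was above all other libraries and SLC4A4 below them in vehicle at 1% O2, CA2 and CA13 lay near or below 1 CPM, and 32-134D replicate 3 stood far above its group for SLC4A7 at 84.6 CPM.

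CA9 encodes a carbonic anhydrase anchored in the plasma membrane with its active site outside the cell. It is at 9:35673856-35681159 on the plus strand of GRCh38 (ENSG00000107159). Its level was 28.0, 29.0 and 26.8 CPM in vehicle at 20% O2, 511, 598 and 631 CPM in vehicle at 1% O2, and 57.2, 61.9 and 50.6 CPM with 32-134D. The 3 groups did not overlap, and the 32-134D libraries lay between the vehicle groups, nearer to 20% O2. The log2 fold change was 4.38 (SE 0.11, FDR 1.14e-12) for 1% against 20% O2 in vehicle and -3.36 (SE 0.10, FDR 2.98e-11) for 32-134D against vehicle at 1% O2. Cells given 32-134D at 1% O2 still held more CA9 mRNA than vehicle cells at 20% O2, with a log2 fold change of 1.03 (SE 0.10, FDR 1.09e-05), which is 2.04-fold.

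CA9 overlaps ARHGEF39, a gene on the opposite strand, over 643 exon bases, or 38.5% of the exon bases of CA9. Whether the counting used strand is not given in the sources used here, and without strand, reads from this stretch cannot be assigned to one gene. ARHGEF39 was at 31.8 ± 3.76 CPM in vehicle at 20% O2, 22.5 ± 0.653 CPM in vehicle at 1% O2 and 23.8 ± 5.22 CPM with 32-134D (SD, n = 3), and was not called in any comparison. Its log2 fold change at 1% O2 was -0.50 (SE 0.14, FDR 0.00758), under the fold threshold and opposite in sign to that of CA9.

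CA12 encodes the other membrane-bound carbonic anhydrase of this set with an extracellular active site, and lies at 15:63321378-63382161 on the minus strand. It stood at 16.6, 16.0 and 16.0 CPM in vehicle at 20% O2, 27.5, 29.0 and 26.6 CPM in vehicle at 1% O2, and 19.7, 20.4 and 20.5 CPM with 32-134D. The groups did not overlap, and the spread within each was small beside the gaps between them. The rise at 1% O2 was called, at a log2 fold change of 0.77 (SE 0.09, FDR 2.86e-06), but under total-count scaling it was 0.56 and short of the fold threshold. With 32-134D the log2 fold change of -0.45 (SE 0.08, FDR 0.000373) passed the FDR but not the fold threshold, so it was not called, although every 32-134D library was below every vehicle library at 1% O2. The same held against vehicle at 20% O2, where the log2 fold change was 0.32 (SE 0.09, FDR 0.0343).

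CA9 and CA12 were also compared within each library by the ratio of their reads, which does not depend on the scaling between libraries. The ratio of CA9 to CA12 reads was 1.69, 1.81 and 1.68 in vehicle at 20% O2, 18.6, 20.6 and 23.7 in vehicle at 1% O2, and 2.90, 3.04 and 2.46 with 32-134D. CA9 reads thus gained on CA12 reads by 12.1-fold at 1% O2 (log2 difference 3.60), lost 7.48-fold with 32-134D at 1% O2 (log2 difference -2.90), and remained 1.62-fold above the vehicle ratio at 20% O2 (log2 difference 0.69). On the log2 scale the group means were 0.79 ± 0.06, 4.38 ± 0.17 and 1.48 ± 0.16 (SD, n = 3). Each of the 3 exact two-sided permutation tests gave p = 0.1, adjusted p = 0.1, which is the smallest value that 3 libraries against 3 allow, so the design cannot reach 0.05.

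**Figure D2:**
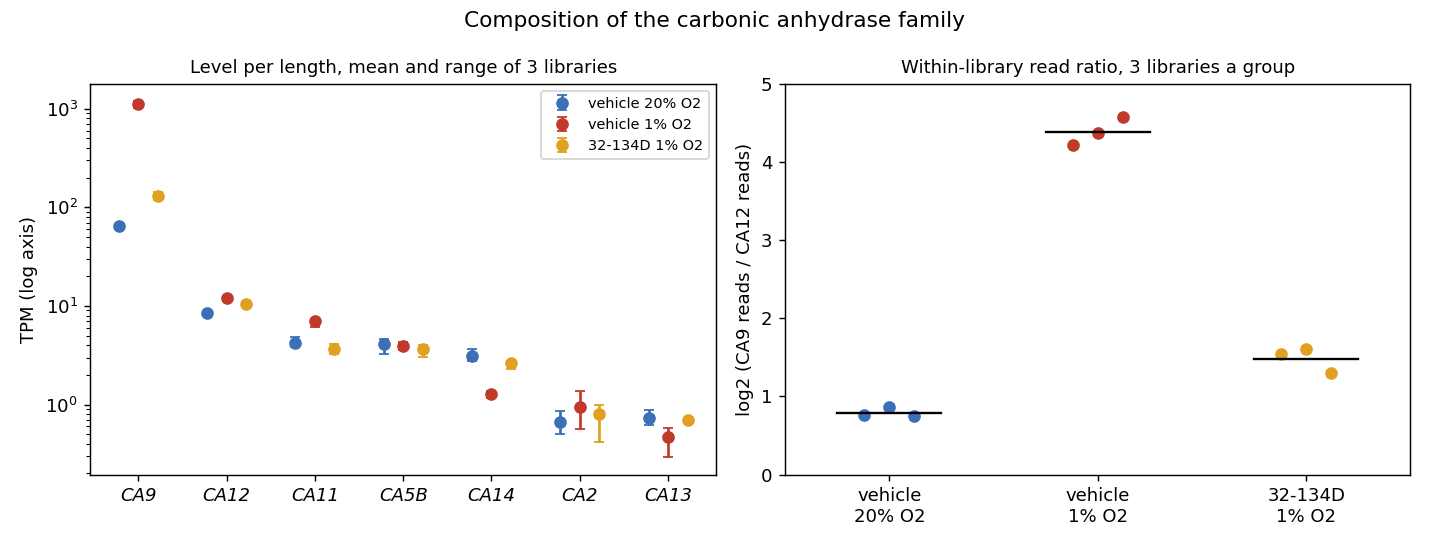
Left, level per length in TPM (log axis) of 7 carbonic anhydrases, as the mean (points) and range (bars) of 3 libraries a group. Right, log2 ratio of CA9 to CA12 reads in each library with the group mean (line), which rose from 0.79 to 4.38 at 1% O2 and stood at 1.48 with 32-134D.

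CA11 encodes a carbonic anhydrase-related protein that lacks catalytic activity, and lies at 19:48637942-48646312 on the minus strand. Its level was 2.22, 2.04 and 2.58 CPM in vehicle at 20% O2, 3.84, 4.86 and 4.87 CPM in vehicle at 1% O2, and 2.04, 2.26 and 1.74 CPM with 32-134D. Vehicle at 1% O2 stood above both other groups without overlap, and the 32-134D libraries overlapped those of vehicle at 20% O2. The log2 fold change was 0.93 (SE 0.19, FDR 0.000746) at 1% O2 and -1.15 (SE 0.18, FDR 8.9e-05) with 32-134D, and against vehicle at 20% O2 it was -0.22 (SE 0.20, FDR 0.56). These calls rest on 13 to 145 counts per library. In a single random draw that thinned every library to the depth of the smallest they were lost, at 0.83 (FDR 0.0535) and -0.56 (FDR 0.193).

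CA5B, CA2 and CA13 were not called in any comparison. CA5B, at X:15688830-15788409 on the plus strand, encodes a mitochondrial carbonic anhydrase, and ranged from 7.07 to 10.2 CPM in vehicle at 20% O2, from 9.25 to 11.8 CPM in vehicle at 1% O2 and from 6.72 to 9.19 CPM with 32-134D. Its groups overlapped at 1% against 20% O2 in vehicle, whereas every 32-134D library was below every vehicle library at 1% O2, at a log2 fold change of -0.34 (SE 0.15, FDR 0.084). The pseudogene CA5BP1 overlaps CA5B on the same strand and shares 2.16% of the 50-base runs of its exons. It stood at 13, 12.2 and 11.1 CPM on average in the 3 groups and was not called either. The antisense gene INE2 covers 22% of the exon bases of CA5B and had 0 to 2 counts per library. As the strand setting is not given, these counts do not show that INE2 was absent.

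CA2 and CA13 encode cytosolic carbonic anhydrases and both lie on the plus strand of chromosome 8, at 85463852 to 85481493 and at 85220587 to 85284073. CA2 had 4, 3 and 11 counts in vehicle at 20% O2, 33, 13 and 11 in vehicle at 1% O2, and 20, 16 and 5 with 32-134D. The groups overlapped, and the log2 fold changes of 0.89 (SE 0.47, FDR 0.131) at 1% O2 and -0.45 (SE 0.40, FDR 0.38) with 32-134D had wide errors. CA13 had 14, 8 and 29 counts in vehicle at 20% O2, 36, 20 and 15 in vehicle at 1% O2, and 36, 30 and 22 with 32-134D. Its log2 fold changes were -0.29 (SE 0.31, FDR 0.452) and 0.33 (SE 0.28, FDR 0.368), and its groups overlapped at 1% against 20% O2 in vehicle.

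Per length, CA9 was the leading carbonic anhydrase in every group. Its level was 64.6 ± 2.98 TPM in vehicle at 20% O2, 1109 ± 87.5 TPM in vehicle at 1% O2 and 129 ± 12.1 TPM with 32-134D (SD, n = 3), computed from the counts and the summed exon length of each gene. That was 74.9 ± 1.24%, 97.7 ± 0.200% and 85.3 ± 0.686% of the summed level of the 15 carbonic anhydrase genes looked up. The sum itself was 86.3 ± 2.89, 1135 ± 87.4 and 151 ± 13 TPM. CA12 came next in each group, at 8.55 ± 0.0333, 12.1 ± 0.584 and 10.5 ± 0.423 TPM. TPM values here carry no TMM factor, unlike CPM and the fold changes. Ratios of TPM between groups therefore differ from the fitted fold changes.

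The other isoforms stayed below 8 TPM in every library. CA11 was at 4.25 ± 0.556, 6.96 ± 0.710 and 3.69 ± 0.452 TPM, CA5B at 4.12 ± 0.764, 3.91 ± 0.393 and 3.64 ± 0.514 TPM, so CA5B did not differ from CA11 beyond their spread in vehicle at 20% O2 or with 32-134D. CA2 and CA13 were below 1 TPM on average in all groups, and their libraries overlapped in each group. CA1, CA6, CA8 and CA10 had 0 counts in all 9 libraries, which allows up to 0.0795 to 0.471 CPM depending on the library (3 counts in each, for counting error only). CA14, a membrane enzyme that was not among the genes followed, moved opposite to CA9: it averaged 3.13, 1.28 and 2.62 TPM, with log2 fold changes of -0.97 (SE 0.20, FDR 0.000767) at 1% O2 and 0.78 (SE 0.19, FDR 0.00337) with 32-134D.

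SLC4A4 encodes the electrogenic sodium bicarbonate cotransporter NBCe1, and lies at 4:71062667-71572087 on the plus strand. Its level was 88.3, 87.9 and 95.4 CPM in vehicle at 20% O2, 8.80, 9.85 and 10.5 CPM in vehicle at 1% O2, and 77.7, 73.2 and 43.0 CPM with 32-134D. The vehicle libraries at 1% O2 were far below all others, and the 32-134D libraries stood below those at 20% O2 without overlap, with replicate 3 about midway between the vehicle groups in CPM. The log2 fold change was -3.23 (SE 0.18, FDR 1.72e-09) at 1% O2, a 9.37-fold fall, and 2.74 (SE 0.18, FDR 2.11e-08) with 32-134D. Against vehicle at 20% O2 it was -0.48 (SE 0.16, FDR 0.0694) and not called. Replicate 3 of 32-134D was the lowest of its group, and without it the 32-134D log2 fold change was 2.97 against vehicle at 1% O2 (FDR 7.99e-21) and -0.27 against vehicle at 20% O2 (FDR 0.0233, under the fold threshold).

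SLC4A7 encodes the electroneutral sodium bicarbonate cotransporter NBCn1, and lies at 3:27372721-27484420 on the minus strand. Its level was 29.5, 31.1 and 29.9 CPM in vehicle at 20% O2, 18.4, 14.3 and 16.5 CPM in vehicle at 1% O2, and 29.0, 30.8 and 84.6 CPM with 32-134D. The vehicle groups did not overlap, 32-134D replicate 1 lay just below and replicate 2 within the range of vehicle at 20% O2, and 32-134D replicate 3 was far above every other library. The log2 fold change was -0.87 (SE 0.31, FDR 0.0286) at 1% O2 and 1.54 (SE 0.30, FDR 0.000664) with 32-134D, and 0.67 (SE 0.30, FDR 0.19) against vehicle at 20% O2.

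The values of SLC4A7 turn on 32-134D replicate 3. Without that library the log2 fold change with 32-134D was 0.86 (FDR 9.93e-09) and that against vehicle at 20% O2 was -0.01 (FDR 0.971). The same library enters the spread that the fit shares between groups: without it the fall at 1% O2 was -0.87 with an FDR of 2.29e-09, while leaving out any 1 of the 6 vehicle libraries in turn, with that library kept, gave FDRs of 0.0529 to 0.0879. DESeq2 gave -0.93 with an FDR of 0.0598. Neither SLC4A4 nor SLC4A7 shares a 50-base run of exon sequence with another annotated gene.

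**Figure D3:**
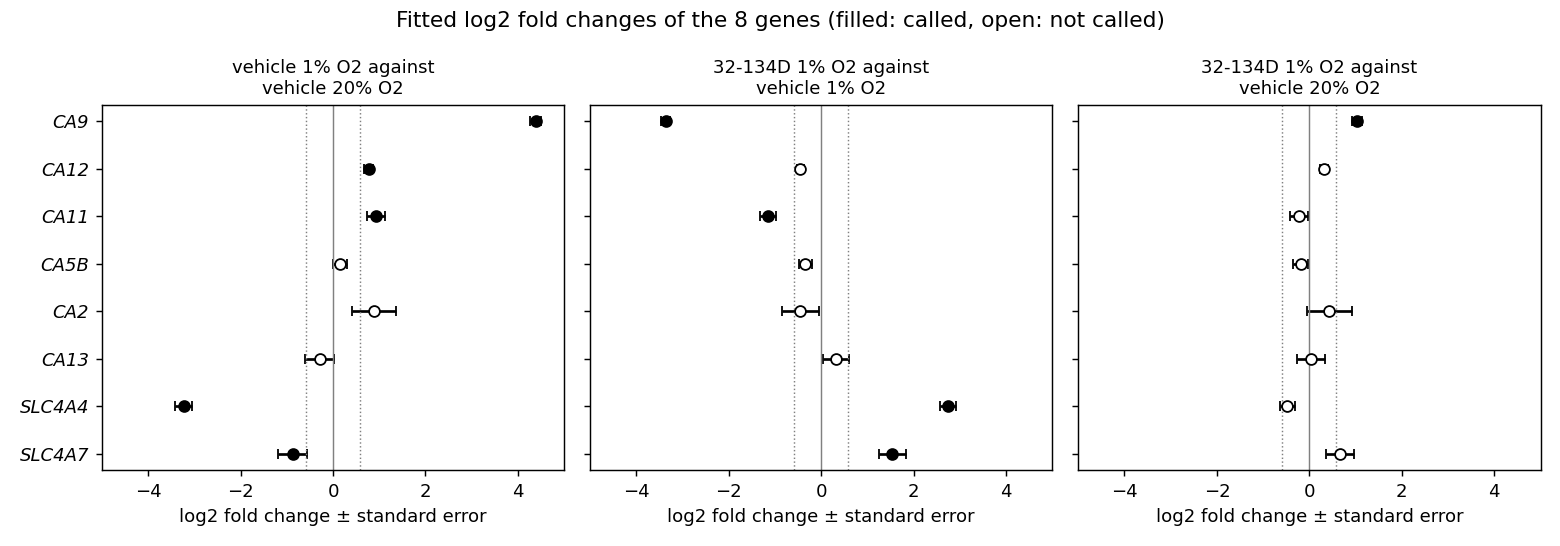
Fitted log2 fold change of the 8 genes in the 3 comparisons, with bars for the standard error, filled points for called genes and dotted lines at a 1.5-fold change. CA9 (4.38) and SLC4A4 (-3.23) had the largest changes at 1% O2, and SLC4A7 had the widest bars among the called genes.

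The level with 32-134D was placed between the 2 vehicle groups on the log2 CPM scale, with 0% at the mean of vehicle at 1% O2 and 100% at the mean of vehicle at 20% O2. CA12 had the lowest value, at 63.2%, 57.2% and 55.6% in the 3 libraries, and CA9 the next, at 76.4%, 73.7% and 80.4%. SLC4A4 was at 93.2%, 90.5% and 66.7%, with replicate 3 the lowest. CA11 was at 115%, 101% and 139%, at or past the level of vehicle at 20% O2 in each library. SLC4A7 was at 93.4%, 104% and 268%. The means were 58.7 ± 4.03% for CA12, 76.8 ± 3.35% for CA9, 83.4 ± 14.6% for SLC4A4, 118 ± 19% for CA11 and 155 ± 97.9% for SLC4A7 (SD, n = 3). CA12 and CA9 did not overlap, whereas SLC4A4 overlapped CA9 and SLC4A7 overlapped CA11. No test was made, because the vehicle means are shared by all libraries of a gene.

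**Figure D4:**
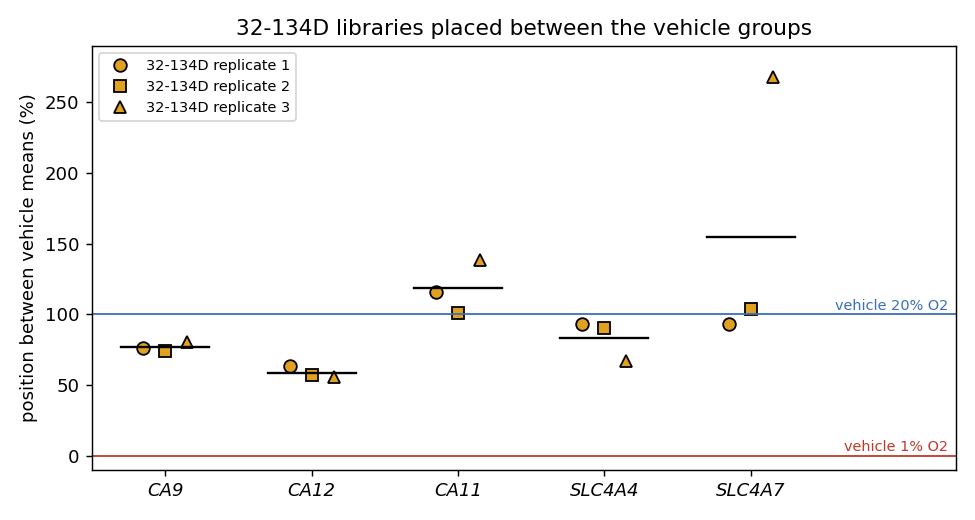
Position of each 32-134D library between the means of vehicle at 1% O2 (0%) and vehicle at 20% O2 (100%) on the log2 CPM scale, with symbols for replicates and a line for the mean. CA12, CA9 and SLC4A4 lay below 100% in all 3 libraries, and the replicate 3 value of SLC4A7 was 268%.

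Per length, the SLC4 family was led in every group by SLC4A2, an anion exchanger, at 188 ± 10.2 TPM in vehicle at 20% O2, 144 ± 3.18 TPM in vehicle at 1% O2 and 167 ± 6.55 TPM with 32-134D. SLC4A2 was not called in either comparison at 1% O2 (log2 fold changes of -0.12 and -0.04 on the CPM scale, FDR 0.174 and 0.703). SLC4A11 followed at 57.7 ± 4.50, 26.5 ± 0.889 and 50.8 ± 4.37 TPM. SLC4A4 came next in vehicle at 20% O2, at 36.4 ± 2.26 TPM, but at 3.22 ± 0.195 TPM in vehicle at 1% O2 it stood below SLC4A3, at 5.73 ± 0.165 TPM, and SLC4A7, at 5.46 ± 0.834 TPM. With 32-134D, SLC4A4 was at 30.1, 29.0 and 17.3 TPM and SLC4A7 at 11.2, 12.2 and 34.1 TPM. SLC4A4 was thus the higher of the 2 in replicates 1 and 2, at 29.6 against 11.7 TPM on average, and SLC4A7 in replicate 3.

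For CA9, CA12, CA11, SLC4A4 and SLC4A7, which were called at 1% against 20% O2 in vehicle, the genes with the most similar pattern were looked up, by the root mean square difference of centred log2 CPM over the 9 libraries, among genes with a mean of at least 5 CPM. The nearest to CA9 were EFNA1 (0.167), P4HA1 (0.225) and BNIP3 (0.226), among 11140 genes. EFNA1 had log2 fold changes of 4.13 at 1% O2 and -2.96 with 32-134D. The nearest to CA12 were FIP1L1 (0.032), HSP90AB1 (0.033) and MTO1 (0.035), with log2 fold changes of 0.71 to 0.77 at 1% O2. The nearest to CA11 were NUDT2 (0.119), AMOTL2 (0.126) and RILP (0.129).

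The nearest to SLC4A4 were KIF12 (0.124), CGNL1 (0.163) and MIR600HG (0.180), of which CGNL1 had log2 fold changes of -3.37 at 1% O2 and 2.94 with 32-134D. The nearest to SLC4A7 were GABRA2 (0.118), KIF21B (0.133) and DCHS1 (0.178). Likeness here takes in 32-134D replicate 3, which was high for SLC4A7. Small differences come easily to genes that change little, so the values for CA12 cannot be set against those for CA9.

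Beside the 8 genes, 89 others that move or sense acid and base were looked up in 8 lists, and 69 of them were tested. At 1% O2, 17 were called higher and 12 lower, which is 24.6% and 17.4% beside 19.5% and 20.3% of all genes, with a median log2 fold change of 0.15 against 0.00 over all genes tested. With 32-134D at 1% O2, 10 were called higher and 11 lower, 14.5% and 15.9% beside 16.2% and 13.7% of all genes, with a median of -0.07 against -0.01. Without 32-134D replicate 3 the counts were 18 and 13, and 11 and 13, of 68 tested. Scaling by total counts in place of TMM moved the median of all genes to -0.21 and 0.17 in these comparisons and the list counts to 11 higher and 18 lower, and to 15 higher and 4 lower. Against vehicle at 20% O2, 1 gene was called higher and 0 lower (6 at an unadjusted p under 0.05 in edgeR, 0 by DESeq2). That gene was PACC1, a proton-activated chloride channel, at a log2 fold change of 0.74 (SE 0.12, FDR 0.00107).

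**Figure D5:**
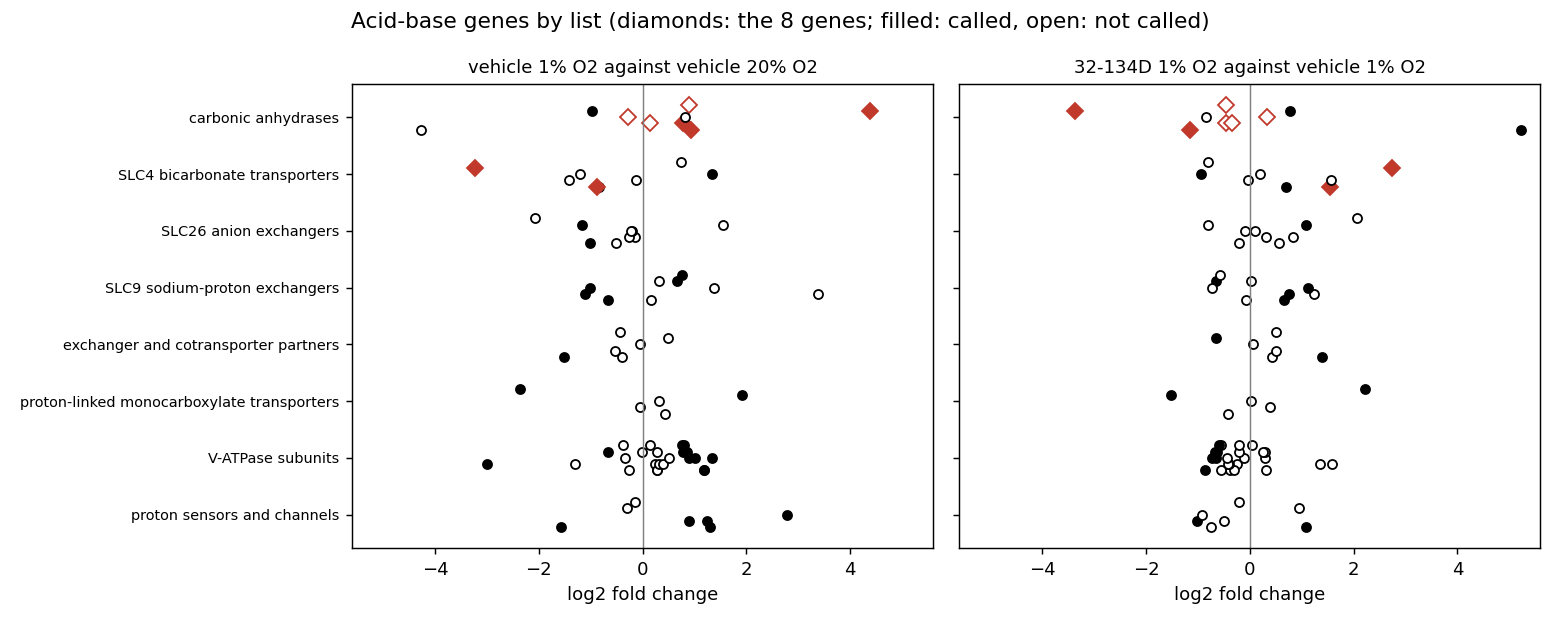
Log2 fold change of each tested gene of the 8 lists at 1% O2 in vehicle (left) and with 32-134D (right), with diamonds for the 8 genes followed here, circles for the others and filled symbols for called genes. CA9 and SLC4A4 were the outermost called genes at 1% O2, on opposite sides, and the point farthest to the right in the right panel is CA5A, which had 0 counts in all vehicle libraries at 1% O2 and overlapped between groups.

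Among the SLC4 genes other than the 2 followed, SLC4A3, an anion exchanger, rose at 1% O2 (log2 fold change 1.34, SE 0.17, FDR 1.12e-05) and fell with 32-134D (-0.94, SE 0.16, FDR 0.000184). SLC4A11 fell at 1% O2 (-0.85, SE 0.08, FDR 5.75e-07) and rose with 32-134D (0.69, SE 0.08, FDR 6.99e-06). Of 9 SLC26 anion exchangers tested, 2 fell at 1% O2 (22.2%, beside 20.3% of all genes): SLC26A2 (-1.17, SE 0.14), a sulfate transporter, and SLC26A1 (-1.02, SE 0.11). In the other direction, 0 were higher by edgeR, at an unadjusted p under 0.05 or by DESeq2, beside 19.5% of all genes called. SLC26A2 rose with 32-134D (1.09, SE 0.14).

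Of 9 SLC9 sodium-proton exchangers tested, 2 rose at 1% O2, among them SLC9A5 (log2 fold change 0.67), and 3 fell (SLC9A8, SLC9A3 and SLC9A7, -1.11, -1.02 and -0.66). Those are 22.2% and 33.3%, beside 19.5% and 20.3% of all genes. With 32-134D SLC9A8, SLC9A3 and SLC9A7 rose (0.76, 1.12 and 0.66) and SLC9A5 fell (-0.66), 33.3% and 11.1% beside 16.2% and 13.7% of all genes. Of 6 partner proteins, TESC, a calcium-binding protein, fell at 1% O2 (-1.51, SE 0.17) and rose with 32-134D (1.39, SE 0.16), and SLC9A3R1, a scaffold protein, fell with 32-134D (-0.66, SE 0.09). Each of these partner calls is 16.7% of the 6, beside 20.3%, 16.2% and 13.7% of all genes in the same order. The 32-134D calls of SLC9A5 and SLC9A3R1 were lost without 32-134D replicate 3 and under total-count scaling. Under that scaling both rises of exchangers at 1% O2 were lost too, and of the partners 4 were called lower at 1% O2 and 4 higher with 32-134D.

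Of the monocarboxylate transporters that carry lactate with a proton and their accessory glycoproteins BSG and EMB, 5 genes were tested, and 1 was called in each direction at 1% O2. That is 20% each way, beside 19.5% higher and 20.3% lower over all genes. SLC16A3, the lactate exporter MCT4, was at 117, 127 and 118 CPM in vehicle at 20% O2, 398, 471 and 492 CPM in vehicle at 1% O2, and 146, 142 and 191 CPM with 32-134D. It rose at 1% O2 (log2 fold change 1.92, SE 0.11, FDR 3e-09) and fell with 32-134D (-1.51, SE 0.11, FDR 7.03e-08). SLC16A7, or MCT2, was at 44.8, 43.8 and 51.7 CPM, then 9.30, 8.11 and 9.89 CPM, then 42.9, 46.0 and 37.7 CPM. It fell at 1% O2 (-2.36, SE 0.11, FDR 3.59e-10) and rose with 32-134D (2.21, SE 0.11, FDR 2.15e-09).

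Subunits of the V-ATPase, the pump that acidifies lysosomes, gave 9 higher and 2 lower of 24 tested at 1% O2, with a median log2 fold change of 0.30, and 0 higher and 6 lower with 32-134D, with a median of -0.34 (4 were higher at an unadjusted p under 0.05 in edgeR, and DESeq2 called 0). Those are 37.5% and 8.33% at 1% O2, beside 19.5% and 20.3% of all genes, and 0% higher and 25% lower with 32-134D, beside 16.2% and 13.7%. Under total-count scaling these were 6 higher and 3 lower (median 0.08), and 0 higher and 1 lower (median -0.15). The largest rises that met the naming rule were ATP6V1D (1.18, SE 0.08), ATP6V1B2 (1.00, SE 0.08) and ATP6V1H (0.89, SE 0.08), and TCIRG1, an isoform of the membrane subunit, fell (-0.66, SE 0.07). Some calls at 1% O2 were of genes below 1 CPM on average. From vehicle at 20% O2 to vehicle at 1% O2, ATP6V1G2 went from 0.446 to 0.958 CPM and ATP6V0D2 from 0.2225 to 0.539 CPM. ATP6V1G3, called lower, went from 0.2225 to 0.023 CPM. With 32-134D, ATP6V1D (-0.86, SE 0.07), ATP6V1B2 (-0.73, SE 0.07) and ATP6V0E1 (-0.68, SE 0.09) fell. Of 7 proton sensors and channels, 4 were called higher at 1% O2 and 1 lower, 57.1% and 14.3% beside 19.5% and 20.3% of all genes. The 4 were PACC1 (1.24, SE 0.12), the voltage-gated proton channel HVCN1 (1.29, SE 0.36), the acid-sensing channel ASIC3 (0.89, SE 0.26) and ASIC4. ASIC4 summed to 1 count in vehicle at 20% O2 and 14 in vehicle at 1% O2. Under total-count scaling 3 were called higher. ASIC1, another acid-sensing channel, fell at 1% O2 (-1.58, SE 0.25). With 32-134D ASIC1 rose (1.08, SE 0.25) and ASIC3 fell (-1.01, SE 0.24), 14.3% each beside 16.2% and 13.7% of all genes. Without 32-134D replicate 3, ASIC3, HVCN1 and PACC1 were called lower with 32-134D, 42.9% beside 14.1% of all genes.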

How the data were processed

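RNA from 9 samples, 3 in each of 3 groups, was sequenced on the NovaSeq platform. The authors deposited raw counts per gene; the submitters' notes name STAR, featureCounts, FastQC, MultiQC, DESeq2 and GRCh38, while their versions and the strand setting are not given in the sources used here. Feature identifiers were matched to Ensembl release 100. Every count column belonged to a labelled sample (0 columns unmapped). Genes with at least 10 counts summed over the 9 libraries were tested with edgeR 4.0.16 (R 4.3.3) after TMM scaling, all groups in 1 fit with no covariate. DESeq2 1.42.0 was an alternative. The fit was tested on simulated data. Depth was 6013980 to 40549699 counts, and the common biological coefficient of variation was 10.5%. Wells may share a culture, so p-values measure the spread between these wells. Intervals and floors cover counting error only.

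The 8 genes, the lists and the tests were chosen with earlier results of these data known. Genes of the lists were named where called, at 1 CPM or more in the higher group and without overlap, up to 3 per list and direction. CA5A, ASIC4, ATP6V1G2, ATP6V0D2, ATP6V1G3 and genes overlapping the 8 were named besides. TPM and positions used GENCODE release 29 on GRCh38, with lengths for 58496 genes holding 99.98% of counts. Log2 CPM used a prior count of 2. Replicate numbers were not treated as a pairing. Correlations of deviations between libraries with the same number were -0.032 to 0.005. They were taken over all genes tested, low-count genes included, so they cannot show that no pairing exists. Thinning was a single random draw that kept each read with equal chance (seed 1).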

Additional observations from a re-analysis of the deposited data

How the results depend on the processing

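Refits changed the tool, scaling, filter, depth, fold threshold, groups fitted or libraries, or added the replicate block. Taking each of the 8 genes in each comparison under each alternative as 1 value, 423 kept their direction and their side of the thresholds, 6 reversed, 13 lost a call and 7 gained one. The reversed values were all of genes not called: CA5B at 1% O2 (-0.06, total library size), CA2 with 32-134D (0.01, thinned), and against vehicle at 20% O2 CA11 (0.27, thinned), CA13 (-0.04, replicate block; -0.12 to 0.12 with each library left out) and SLC4A7 (-0.01 without 32-134D replicate 3, up to 0.93 without replicate 1). The number of genes lower at 1% O2 was 1 with DESeq2 and at a fold change above 2, and 1 to 2 with each library left out, SLC4A7 being the call lost; at a fold change above 2 the number higher was 1. Thinned, the number lower with 32-134D was 1, CA11 being lost, and CA13, with the fewest counts but CA2, was called lower at 1% O2 (-1.38) and higher with 32-134D (1.44). Against vehicle at 20% O2 the number higher was 2 with no filter on low counts (SLC4A7), 2 with no fold threshold (CA12), and 1 to 2 with each library left out; the number lower was 0 to 1 (SLC4A4 at -0.63 without 32-134D replicate 1). CA12 at 1% O2 fell to 0.56 under total library size, short of the threshold. The position of CA12 was 54.6% with DESeq2 size factors, 47.7% with total library size and 52.3% to 60.3% with each library left out, and the CA9 share of the family was 71.3%, 97.4% and 83.0% with the longest transcript as length. The cause was not tested where no gene is named. The replicate block changed no call of the 8 genes, and replicate numbers were not treated as a pairing here.

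Over all genes, total library size turned 4412 higher and 4595 lower at 1% O2 into 3081 and 5848 (49% against 34.5% higher), and 3675 and 3100 with 32-134D into 4755 and 1847 (54.2% against 72% higher). Asking for 10 or more counts in each of the libraries left 12912 genes, without CA2 and CA13. Counts past the thresholds that moved by over 1.5 times were, at a fold change above 2, 2449 higher at 1% O2, 1188 lower with 32-134D, and 283 higher and 21 lower against vehicle at 20% O2; with no fold threshold, 5788 lower with 32-134D, and 1771 higher and 553 lower against vehicle at 20% O2; and under that stricter filter, 2824 higher at 1% O2 and 1771 lower with 32-134D. The 117 lower against vehicle at 20% O2 became 291 with no filter, 39 with only the groups compared, and 35 to 198 with each library left out. Of the 69 other acid-base genes, the 17 higher at 1% O2 became 11 under that stricter filter, 8 at a fold change above 2 and 26 with no fold threshold; with 32-134D the 10 higher became 6 and 18 at those fold thresholds, and the 11 lower became 2 and 21, 5 when thinned, 7 with only the groups compared and 4 under that stricter filter; against vehicle at 20% O2 the 1 higher and 0 lower became 0 and 0 at a fold change above 2, and 4 and 3 with no fold threshold.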
